A study of Mus musculus with 11 samples.

Results

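Heat shock proteins and their co-chaperones were examined in RNA-seq libraries of mouse soleus and quadriceps, with and without induction of the transcription factor Myc. The set holds 46 genes, chosen by name for their known part in protein folding, with earlier results of these data known. It comprises 3 HSP90 genes, 8 HSP70 genes, 3 HSP110 genes, 7 small heat shock proteins, 13 J-domain proteins, 8 co-chaperones of HSP90 and HSP70, 3 BAG proteins and Hsf1. All 46 were rows of both deposited tables, which together list 13359 genes, and all 46 passed the filter on low values in both muscles.

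The study holds 11 libraries of muscle from mice 2.5 months old. Soleus gave 3 control and 4 Myc-labelled libraries, and quadriceps gave 2 of each. The Myc-labelled animals carried a tetracycline system, in which a transgene is switched on by doxycycline. They received doxycycline overnight and were sampled 12 hours after the drug was taken away. The controls were of the same age, and the labels do not give their genotype or whether they received doxycycline. The promoter or cell type that drives the system is not given either, nor whether soleus and quadriceps libraries of the same number came from one animal. Nothing in the labels says that libraries of a group came from separate animals, so p-values measure the spread between these libraries, which may be technical.

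Molecular chaperones bind unfolded or partly folded proteins and keep them from aggregating. HSP70 proteins bind exposed hydrophobic stretches in an ATP-driven cycle, which J-domain proteins start and nucleotide exchange factors (HSP110 and BAG proteins) reset. HSP90 receives partly folded clients from HSP70 and works with a set of co-chaperones that deliver clients, slow or speed its ATPase, and add specificity. Small heat shock proteins hold unfolding proteins without using ATP, and in striated muscle several of them sit at the Z-disc and filaments of the sarcomere. Hsf1 is the transcription factor of the heat shock response and binds the heat shock element, an array of inverted nGAAn units.

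Values were normalised read counts, on a scale where 1 read was worth 0.8371 to 1.174 units in soleus and 0.8311 to 1.1605 in quadriceps. This put the libraries at an estimated 11.1 to 14.9 M counted reads in soleus and 14.2 to 18.4 M in quadriceps. The row of Myc itself did not separate the groups. It stood at 30.0, 54.3 and 28.2 in the soleus control libraries and at 26.3, 31.0, 28.8 and 27.7 in the Myc-labelled ones (log2 change -0.33, limma adjusted p = 0.69). In quadriceps it was 114 and 55.7 in controls and 86.4 and 33.6 in Myc-labelled libraries (log2 change -0.55, limma adjusted p = 0.93). The groups are therefore called by their labels throughout. In soleus the summed level of 10 tendon markers was 7899 to 9874 in controls and 8057, 7053, 2343 and 3719 in Myc-labelled libraries 1 to 4, and that of 7 fibroblast and matrix markers was 13806 to 20574 in controls and 17131, 17551, 5680.0 and 8409 in the Myc-labelled ones. None of these marker genes was at 0 in all libraries. Myc-labelled soleus libraries 3 and 4 were therefore low in both sums, and results were recomputed without both libraries. Not every gene followed: in library 4 Lum (297) and Dpt (305) did not lie below the controls (210 to 288 and 276 to 425). The tendon marker Scx lay within its control range (146 to 277) in both libraries 3 (164) and 4 (171). In quadriceps the tendon sum was 4090 and 1536 in controls and 282 and 3739 in Myc-labelled libraries 1 and 2. The fibroblast and matrix sum there was 13330 and 16594.5 in controls and 9846 and 18910 in Myc-labelled libraries. In bulk tissue, fewer cells of a type and less RNA per cell cannot be told apart. The part of these markers in the results below was not tested beyond that recomputation.

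In soleus, 10 of the 46 genes were higher in the Myc-labelled libraries and 1 was lower (limma on log2(value + 1), Benjamini-Hochberg adjusted p under 0.05 over 12745 genes). Over all genes tested, 7.06% were called higher and 2.23% lower, against 21.7% and 2.17% of the chaperone set. The 10 that rose were Hsp90aa1, the HSP90 co-chaperones Fkbp4, Ahsa1, Ptges3 and Cdc37, the HSP110 genes Hsph1 and Hspa4, the exchange factor Bag2, the ribosome-associated J-domain protein Dnajc2, and Hsf1. Hspa2, an HSP70 gene, fell. The median log2 change of the set was 0.02, against -0.03 for all genes tested. It was 0.068 under scaling by library size, which moved the median of all genes by 0.046, and -0.0053 without Myc-labelled libraries 3 and 4. Without Myc-labelled libraries 3 and 4, 5 genes were higher: Hsp90aa1, Fkbp4, Bag2 and Hsph1 of the 10, and Hspa8, with 483 of all genes then called higher in place of 900.

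**Figure D1:**
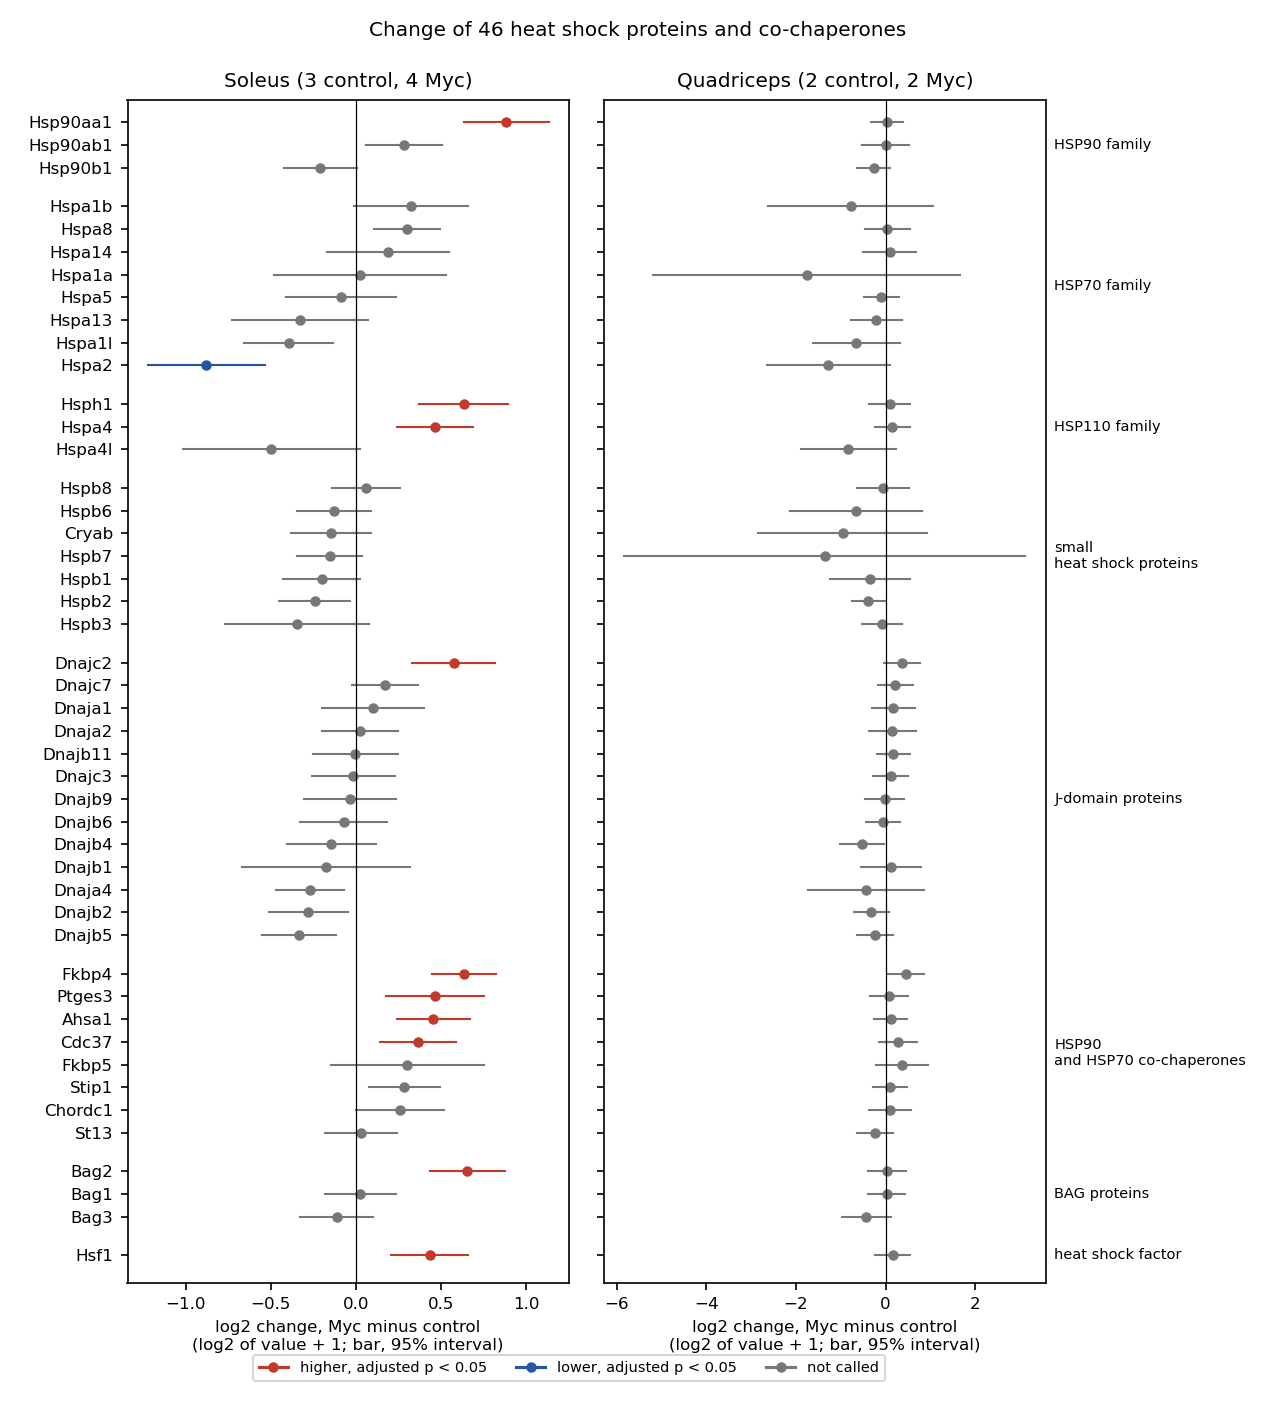
Log2 change (Myc-labelled minus control, of value + 1) of each of the 46 genes in soleus (left, 3 control and 4 Myc-labelled libraries) and quadriceps (right, 2 and 2), grouped by role; points are estimates and bars 95% confidence intervals, red for higher and blue for lower at adjusted p under 0.05, and the axes of the panels differ in scale. In soleus 10 genes are called higher and Hspa2 lower, and in quadriceps none is called, with the widest intervals for Hspb7 (-5.83 to 3.12) and Hspa1a (-5.19 to 1.67).

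Of the HSP90 family, the stress-inducible cytosolic gene rose and the other genes did not pass the test. Hsp90aa1 read 789.9, 870.1 and 749 in the soleus controls and 1621, 1435, 1225 and 1673 in the Myc-labelled libraries. The groups did not overlap, with a mean of 803 ± 61.6 (SD, n = 3) against 1489 ± 203 (SD, n = 4), a ratio of 1.85. The log2 change was 0.88 (SE 0.12, limma adjusted p = 0.0001), the largest rise among the 46. Hsp90ab1, the constitutive cytosolic form, read 22720.5, 24903 and 23046 in controls and 27102, 24668, 31287 and 32061 in the Myc-labelled libraries. Its groups overlapped through Myc-labelled library 2 and it was not called (log2 change 0.28, limma adjusted p = 0.11), though it passed without that library (adjusted p = 0.049) and under scaling by library size (adjusted p = 0.020). Hsp90b1, the HSP90 of the endoplasmic reticulum (ER), had a log2 change of -0.21 (limma adjusted p = 0.24).

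Cytosolic HSP90 and its co-chaperones held 5 of the 10 genes that rose. With Hsp90aa1 and Hsp90ab1, 7 co-chaperones make a subset of 9 genes, of which 5 were called higher and none lower, against 7.06% and 2.23% of all genes. The log2 change was positive in 9 of 9 (median 0.36, against -0.03 for all genes tested), and 4 of them, Hsp90ab1, Stip1, Chordc1 and Fkbp5, did not pass. Without Myc-labelled libraries 3 and 4, only Hsp90aa1 and Fkbp4 of the 5 stayed called (adjusted p = 0.10 for Ahsa1, 0.20 for Ptges3 and 0.23 for Cdc37). The subset was defined by function, with earlier results of these data known. Fkbp4, the immunophilin FKBP52 that binds HSP90 in steroid receptor complexes, read 1697, 1751 and 1578 in controls and 2573, 2546, 2631 and 2654 in Myc-labelled libraries. Its Myc-labelled libraries lay close together and well apart from the controls, and the log2 change was 0.64 (SE 0.09, limma adjusted p = 0.00016). Ahsa1, the activator of the HSP90 ATPase, read 887, 918 and 956 in controls and 1205, 1151, 1339 and 1357 in Myc-labelled libraries. Every Myc-labelled value was above every control value (log2 change 0.45, SE 0.10, limma adjusted p = 0.0080).

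Ptges3, the co-chaperone p23 that stabilises the closed form of HSP90, read 619, 449 and 657 in controls and 837, 698, 770.3 and 836 in Myc-labelled libraries. Cdc37, which brings protein kinases to HSP90, read 1817, 1892 and 1463 in controls and 2034, 2176, 2354 and 2270.2 in Myc-labelled libraries. In both genes the groups were separate, and 1 control library lay below the other controls. Their log2 changes were 0.46 (SE 0.14, limma adjusted p = 0.041) and 0.36 (SE 0.11, limma adjusted p = 0.040). These calls rested on single libraries: Ptges3 was not called without control 1 (adjusted p = 0.055), control 2 (0.24), or Myc-labelled library 1 (0.097), 3 (0.072) or 4 (0.12). Cdc37 was not called without control 1 (adjusted p = 0.065), control 3 (0.18), or Myc-labelled library 2 (0.073), 3 (0.089) or 4 (0.11).

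The other co-chaperones did not pass the test. Stip1 (HOP), which links HSP70 to HSP90, read 1428, 1532 and 1309 in controls and 1805, 1641, 1645 and 1832 in Myc-labelled libraries (log2 change 0.28, limma adjusted p = 0.085), and passed under scaling by library size (adjusted p = 0.040). Chordc1, a CHORD-domain partner of HSP90, read 539, 550.0 and 544 in controls and 764, 583, 592 and 676 in Myc-labelled libraries (log2 change 0.26, limma adjusted p = 0.23). For both genes the groups did not overlap. Fkbp5, the immunophilin FKBP51, had a log2 change of 0.30 (limma adjusted p = 0.43), with Myc-labelled library 3 at 2373 and the others at 1311 to 1507. St13 (HIP), which acts on HSP70, had a log2 change of 0.03 (limma adjusted p = 0.90).

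**Figure D2:**
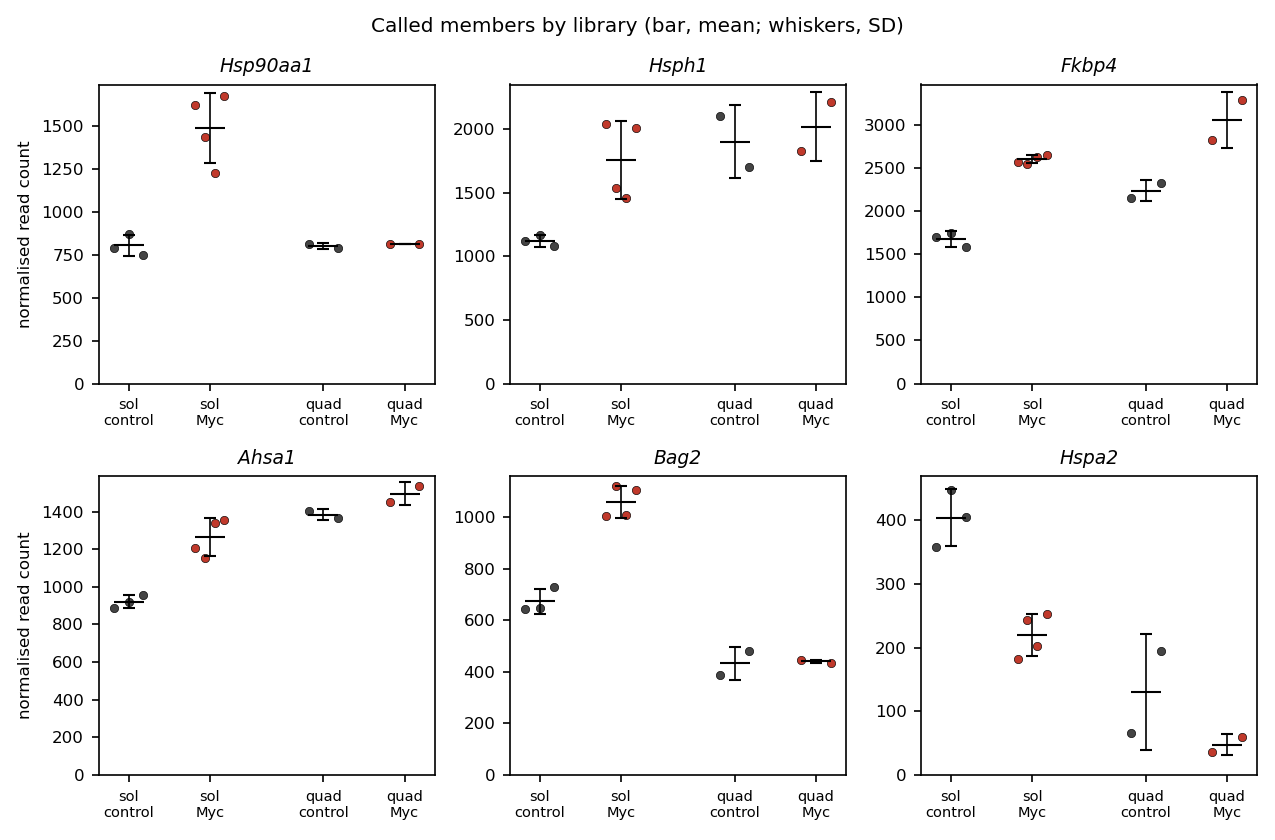
Normalised read count of 6 genes in every library, for soleus and quadriceps control and Myc-labelled groups (points, libraries; bar, mean; whiskers, SD; linear axes from 0). In soleus the Myc-labelled libraries of Hsp90aa1, Hsph1, Fkbp4, Ahsa1 and Bag2 lie above every control and those of Hspa2 below, while in quadriceps Hsp90aa1 reads 786 to 814 in all 4 libraries.

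HSP110 proteins are large relatives of HSP70 that release its nucleotide and take part in disaggregation. Of the 3 genes, 2 rose. Hsph1 (HSP105) read 1120.4, 1172 and 1078 in the soleus controls and 2042, 1537, 1458 and 2007 in the Myc-labelled libraries. All Myc-labelled values were above the controls, in a high pair (libraries 1 and 4) and a low pair (2 and 3), with a log2 change of 0.63 (SE 0.12, limma adjusted p = 0.0030). Hspa4 (APG-2), the constitutive member, read 3163, 2488 and 2483 in controls and 3946, 3359, 3751 and 3813 in Myc-labelled libraries. Its groups were separate (log2 change 0.46, SE 0.11, limma adjusted p = 0.0097), and it was not called without control 2 (adjusted p = 0.068) or without Myc-labelled libraries 3 and 4 together (0.078). Hspa4l, the least abundant gene of the set per kilobase, read 163, 147 and 141 in controls and 134, 116, 69.1 and 117 in Myc-labelled libraries (log2 change -0.50, limma adjusted p = 0.26).

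BAG proteins also release nucleotide from HSP70. Bag2, which inhibits the ubiquitin ligase CHIP, read 643, 648 and 730.2 in the soleus controls and 1006, 1121, 1006 and 1104 in the Myc-labelled libraries. The gap between the groups exceeded the spread within either (log2 change 0.65, SE 0.10, limma adjusted p = 0.00056). Bag1 (log2 change 0.02, limma adjusted p = 0.92) and Bag3 (log2 change -0.11, limma adjusted p = 0.56) did not pass the test. Bag3 pairs with Hspb8 in the removal of damaged filamin at the Z-disc.

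Hsf1 read 731, 723 and 659.8 in the soleus controls and 882, 903, 1018 and 1001 in the Myc-labelled libraries. The groups did not overlap (log2 change 0.43, SE 0.11, limma adjusted p = 0.015). It was not called without control 3 (adjusted p = 0.056), without Myc-labelled library 4 (0.052), or without Myc-labelled libraries 3 and 4 together (0.15). The transcript level of Hsf1 does not measure the activity of the protein, which is set by trimerisation and phosphorylation.

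The inducible chaperones best known as outputs of the heat shock response did not pass the test in soleus. Hspa1a and Hspa1b encode the inducible HSP70. Hspa1a read 1220.5, 1219.9 and 738 in controls and 1423, 999, 869 and 975 in Myc-labelled libraries, with overlapping groups (log2 change 0.02, 95% interval -0.48 to 0.52, limma adjusted p = 0.97). Hspa1b read 469.8, 536 and 472 in controls and 846, 551, 498 and 618 in Myc-labelled libraries (log2 change 0.32, 95% interval -0.01 to 0.66, limma adjusted p = 0.25). The transcripts of this pair share 2201 bases at 99.2% identity, so how reads were divided between them is uncertain. Dnajb1 (HSP40), a J-domain partner of inducible HSP70, read 134, 146 and 161 in controls and 159.6, 145, 139 and 88.1 in Myc-labelled libraries (log2 change -0.18, limma adjusted p = 0.71). Hspb1 (HSP27) had a log2 change of -0.20 (limma adjusted p = 0.29). Hsp90aa1 and Hsph1, also heat-inducible genes, thus rose in libraries where Hspa1a, Dnajb1 and Hspb1 were not called.

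Promoter windows are shown for Hsph1, Chordc1 and Dnajb6, the genes of the set whose window holds a heat shock element of 3 units, for Fkbp4, which rose and holds a shorter one, and for the uncalled inducible gene Hspa1a. Windows run from 250 bases before to 50 after the start of the RefSeq gene, on the gene's own strand, 5′ to 3′, in the mouse build GRCm38.p6. They lie at chr5:149636287-149636586 (Hsph1, minus strand), chr9:18292017-18292316 (Chordc1, plus), chr5:29735648-29735947 (Dnajb6, plus), chr6:128438607-128438906 (Fkbp4, minus) and chr17:34972107-34972406 (Hspa1a, minus). The table had an entry for 37 of the 46 genes, 7 of them among the 10 that rose. Hsp90aa1, Dnajc2 and Hsf1, which also rose, had no entry, so their promoters were not examined. Capitals mark matches to GAANNTTC or TTCNNGAA, the 2-unit core contained in each 3-unit element, and to the E-box CACGTG, the preferred site of Myc with its partner Max.
Hsph1: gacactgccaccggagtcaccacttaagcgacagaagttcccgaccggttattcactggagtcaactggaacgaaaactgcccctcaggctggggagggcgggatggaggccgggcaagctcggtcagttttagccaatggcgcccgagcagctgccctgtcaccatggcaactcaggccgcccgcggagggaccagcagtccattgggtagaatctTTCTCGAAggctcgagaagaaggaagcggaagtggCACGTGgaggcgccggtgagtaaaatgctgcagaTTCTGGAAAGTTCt
Chordc1: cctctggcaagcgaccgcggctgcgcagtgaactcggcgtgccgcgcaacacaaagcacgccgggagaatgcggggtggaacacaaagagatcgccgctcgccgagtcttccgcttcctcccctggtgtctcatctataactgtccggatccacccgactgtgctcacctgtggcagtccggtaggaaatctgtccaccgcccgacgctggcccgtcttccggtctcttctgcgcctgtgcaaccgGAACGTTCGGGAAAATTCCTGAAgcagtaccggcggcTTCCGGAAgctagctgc
Dnajb6: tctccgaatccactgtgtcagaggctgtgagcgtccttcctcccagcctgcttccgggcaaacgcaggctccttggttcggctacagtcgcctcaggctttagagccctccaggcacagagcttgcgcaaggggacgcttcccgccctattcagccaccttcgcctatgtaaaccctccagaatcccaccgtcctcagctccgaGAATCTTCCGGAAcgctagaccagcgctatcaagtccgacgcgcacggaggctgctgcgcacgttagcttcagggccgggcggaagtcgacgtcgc
Fkbp4: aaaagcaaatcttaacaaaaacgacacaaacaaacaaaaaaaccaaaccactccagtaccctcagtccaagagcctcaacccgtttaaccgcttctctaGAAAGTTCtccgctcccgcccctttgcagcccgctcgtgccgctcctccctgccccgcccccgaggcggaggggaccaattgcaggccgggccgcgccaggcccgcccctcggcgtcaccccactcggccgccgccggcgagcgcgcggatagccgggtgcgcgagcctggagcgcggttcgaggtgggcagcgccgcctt
Hspa1a: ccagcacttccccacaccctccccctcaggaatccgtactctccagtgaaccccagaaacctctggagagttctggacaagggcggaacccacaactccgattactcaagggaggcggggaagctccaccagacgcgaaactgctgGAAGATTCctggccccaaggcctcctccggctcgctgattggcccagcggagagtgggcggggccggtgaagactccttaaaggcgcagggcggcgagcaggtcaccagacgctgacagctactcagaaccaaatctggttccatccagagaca

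A heat shock element of 3 units (the 2-unit form followed by a further inverted unit at the same spacing) was present in the windows of 3 of the 37 genes (8.1%), against 0.66% of the 27025 genes in the table. These 3 genes behaved unlike in soleus: Hsph1 rose, Chordc1 was not called at a log2 change of 0.26, and Dnajb6 was not called at a log2 change of -0.07 (limma adjusted p = 0.78). The 2-unit form was present in 15 of 37 (40.5%), against 16.97% of all genes. It was in 3 of the 7 genes that rose and in 12 of the 29 not called. CACGTG was found in 3 of 37 (8.1%, against 8.09% of all genes): Hsph1, Fkbp5 and the ER gene Dnajb9, of which Hsph1 was called. The looser E-box CANNTG was found in 20 of 37 (54.1%), against 74.99% of all genes. It was in 2 of the 7 that rose and in 17 of the 29 not called. Every motif was searched on both strands, the 2-unit form lies within the 3-unit form, and CACGTG is 1 case of CANNTG. The window of Hspa1b differs from that of Hspa1a at 4 of its 300 bases. A match describes the letters of these windows and is not evidence of a bound site.

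Of the 8 HSP70 genes, the 1 called change was a fall. Hspa2, an HSP70 best known for its role in spermatogenesis, read 359, 448 and 405 in the soleus controls and 182, 244, 203 and 252 in the Myc-labelled libraries. The groups were well apart, at 404 ± 44.7 (SD, n = 3) and 220 ± 33.4 (SD, n = 4), for a log2 change of -0.88 (SE 0.16, limma adjusted p = 0.0019). It kept its call without each library in turn and lost it in a single fit over all 11 libraries (adjusted p = 0.10). Hspa8 (HSC70), the abundant constitutive HSP70, read 18566, 20039 and 17724 in controls and 23891, 23769, 21010.2 and 23786 in Myc-labelled libraries. All 4 Myc-labelled values exceeded the controls, but the gene narrowly missed the threshold (log2 change 0.30, SE 0.09, limma adjusted p = 0.052). It passed without Myc-labelled library 3, the lowest of the 4 (adjusted p = 0.019), without libraries 3 and 4 together (0.048), and under scaling by library size (0.020).

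Hspa1l, a close relative of the inducible pair, read 1651, 1793 and 1269 in controls and 1327, 1201, 1154 and 1057 in Myc-labelled libraries. Control 3 lay inside the Myc-labelled range (log2 change -0.40, limma adjusted p = 0.053), and the gene passed without control 3 (adjusted p = 0.0069) or without Myc-labelled library 1 (0.044). An antisense gene overlaps its exons over 1778 bases, and whether strand was used in counting is not given in the sources used here. Hspa14, which works with Dnajc2 on ribosomes, read 187, 205 and 228 in controls and 259, 259, 227 and 199.9 in Myc-labelled libraries (log2 change 0.19, limma adjusted p = 0.56).

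Of the 13 J-domain genes, which set the ATPase of HSP70 to work on a client, only Dnajc2 was called. Dnajc2 (MPP11) is the J-domain protein of the ribosome-associated complex, which folds chains as they leave the ribosome. It read 671, 549 and 654 in the soleus controls and 826, 915, 979.9 and 992 in the Myc-labelled libraries. Its groups were apart (log2 change 0.57, SE 0.11, limma adjusted p = 0.0036), and it was not called without Myc-labelled libraries 3 and 4 together (adjusted p = 0.068). The family's median log2 change was -0.03, with 9 of 13 values negative. The most negative value was that of Dnajb5, a relative of Dnajb1, which read 2939, 2983 and 2356 in controls and 2234, 2308, 2029 and 2134 in Myc-labelled libraries. It missed the threshold (log2 change -0.34, limma adjusted p = 0.052) and passed without control 3 (adjusted p = 0.0098).

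For Dnaja4 and Dnajb2 every Myc-labelled value also lay below every control value, and neither was called. Dnaja4 read 4788, 4822 and 4689.8 in controls and 4296, 3873, 3503 and 4178 in Myc-labelled libraries (log2 change -0.27, limma adjusted p = 0.092), but it shares 1581 exon bases with Wdr61 on the opposite strand. Dnajb2, a J-domain protein linked to the proteasome, read 1013, 1034 and 1052 in controls and 905, 722, 868 and 918 in Myc-labelled libraries (log2 change -0.28, limma adjusted p = 0.13). Dnaja1 and Dnaja2, the general cytosolic partners of HSC70, had log2 changes of 0.10 and 0.02 (limma adjusted p = 0.74 and 0.94). Dnajc7, which binds both HSP70 and HSP90, read 1484, 1527 and 1586 in controls and 1608, 1775, 1769 and 1738 in Myc-labelled libraries, a small separation that did not pass (log2 change 0.17, limma adjusted p = 0.31). Dnajb4 stood at -0.14 (limma adjusted p = 0.54).

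Counted without a threshold, the Myc-labelled soleus libraries all lay above the controls for 14 of the 46 genes (30.4%) and all below for 7 (15.2%). Over all 12745 genes these shares were 12.7% and 8.35%.

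None of the 7 small heat shock proteins was called in soleus. They include the most abundant transcripts of the set. Hspb7, a cardiac and skeletal muscle protein that binds filamin C, read 51209, 51654 and 44511 in controls and 44362, 43756, 45599.5 and 42326 in Myc-labelled libraries (log2 change -0.16, 95% interval -0.35 to 0.04). Hspb6 (HSP20) read 46340.0, 41176 and 45183 in controls and 37685, 38131, 38663 and 48000.3 in Myc-labelled libraries (log2 change -0.13, 95% interval -0.35 to 0.09). Cryab, which chaperones desmin, read 32662, 29118 and 30452 in controls and 30645, 25043, 23946 and 32052 in Myc-labelled libraries (log2 change -0.15, 95% interval -0.38 to 0.09). In all 3 genes the groups overlapped, and the limma adjusted p-values were 0.35, 0.51 and 0.47.

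Hspb2, the muscle partner of Hspb3, read 1175, 1204 and 1098 in controls and 1036, 1019, 949.8 and 913 in Myc-labelled libraries. Every Myc-labelled value was lower, but the gene was not called (log2 change -0.24, limma adjusted p = 0.16), and its exons overlap those of Cryab over 252 bases on the opposite strand. Hspb3 had a log2 change of -0.35 (limma adjusted p = 0.34), with Myc-labelled library 3 at 149.7 and the other 3 at 248 to 280.4. Hspb8 (HSP22), the partner of Bag3, stood at 0.06 (limma adjusted p = 0.77). The family's log2 changes spanned -0.35 to 0.06 with a median of -0.16, 6 of 7 being negative, and only Hspb2 had an unadjusted p under 0.05. The summed level of 10 slow fibre markers was 534736 to 622212 in controls and 504670.0 to 645089 in Myc-labelled libraries, and their part in these values was not tested. The sum of 12 fast fibre markers was 684536 to 721842 in controls and 451315, 600625, 712882 and 492272 in Myc-labelled libraries 1 to 4, so 3 of the 4 lay below every control. The median log2 change of the 12 was -0.35, and Mylpf, a fast myosin light chain, was called lower (log2 change -0.47, limma adjusted p = 0.010). Libraries 1 and 4, the lowest in this sum, were the highest of the 4 for Hsp90aa1 and Hsph1.

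**Figure D3:**
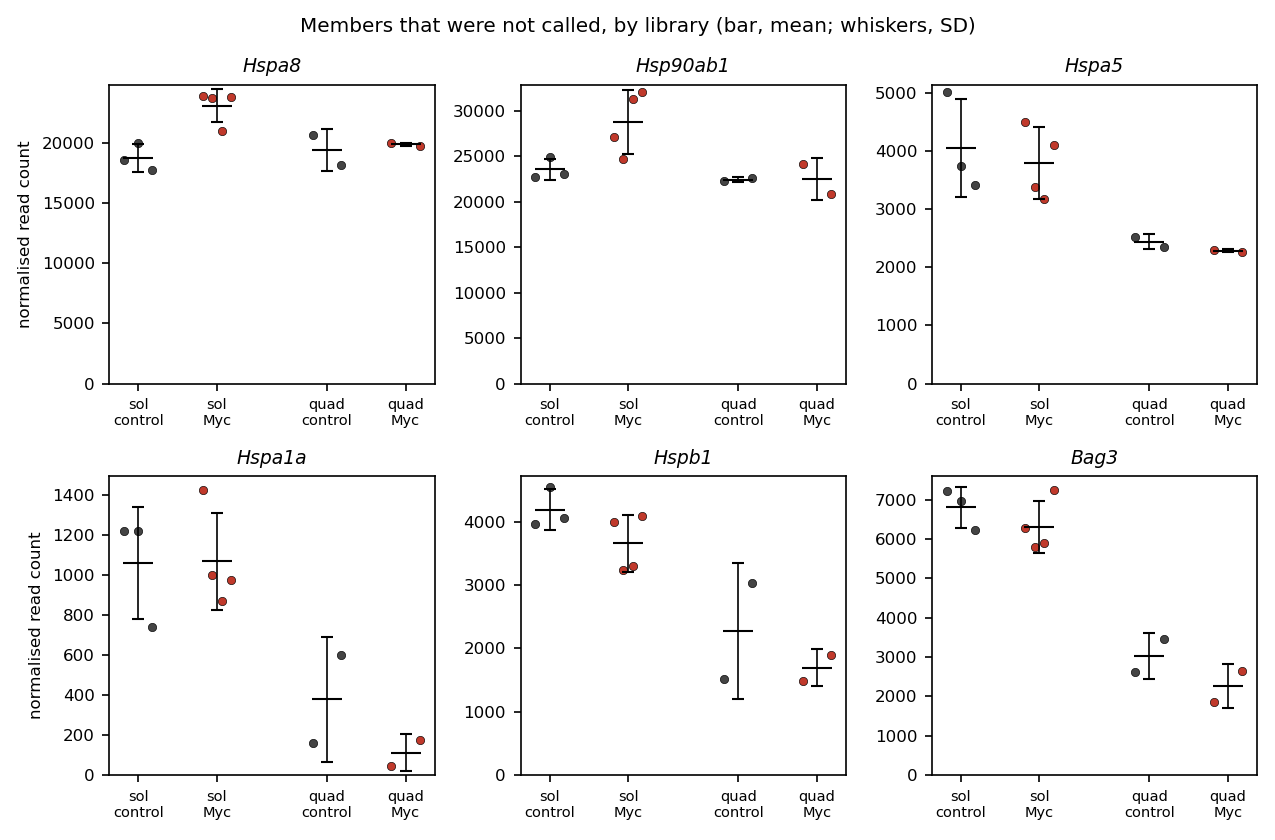
Normalised read count of 6 genes that were not called in either muscle, in every library (points, libraries; bar, mean; whiskers, SD; linear axes from 0). Hspa8 in soleus separates the groups by little, the groups of Hspa1a and Hspa5 overlap in soleus, and in quadriceps Hspa1a spans 45.6 to 599.6 over 4 libraries.

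The 6 members that work in the ER lumen were not called in soleus. Hspa5 (BiP), the HSP70 of the ER and the standard readout of the unfolded protein response, read 5000.1, 3729 and 3411 in controls and 4493, 3383, 3169 and 4097 in Myc-labelled libraries (log2 change -0.09, 95% interval -0.41 to 0.23, limma adjusted p = 0.78). Hspa13 read 192, 208 and 209 in controls and 189, 183, 135 and 144 in Myc-labelled libraries, apart but not called (log2 change -0.33, limma adjusted p = 0.34). The J-domain proteins of the ER, Dnajb9, Dnajb11 and Dnajc3, had log2 changes of -0.03, -0.005 and -0.02 (limma adjusted p = 0.91, 0.99 and 0.95), each of which became positive under scaling by library size (0.011, 0.041 and 0.028). Of 23 further genes of ER folding and the unfolded protein response, none was called in soleus, and 2 had an unadjusted p under 0.05. Their median log2 change was -0.04, and the smallest p-values belonged to Xbp1 (log2 change -0.27, limma adjusted p = 0.15) and Herpud1 (log2 change -0.27, limma adjusted p = 0.15). Over the 12745 genes, 2768 (21.7%) had an unadjusted p under 0.05 and none of the 6 ER members did. Hsp90b1 missed that bound narrowly (limma unadjusted p = 0.052), and 6 genes are too few to compare with this share. The log2 changes of all 6 were negative (median -0.06).

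Genes of the pathway outside the set were read from 2 more lists. Of 44 other co-chaperones and J-domain proteins, 9 were called higher in soleus and none lower (median log2 change 0.14, against 7.06% called higher and a median of -0.03 for all genes). Ruvbl1 and Ruvbl2, the ATPases of the R2TP complex that HSP90 uses to assemble large machines, rose by 0.995 (SE 0.19, limma adjusted p = 0.0023) and 0.94 (SE 0.16, limma adjusted p = 0.00098) on the log2 scale. Ruvbl1 went from 122 ± 9.91 (SD, n = 3) to 247 ± 39.2 (SD, n = 4) and Ruvbl2 from 214 ± 38.7 to 409 ± 47.1. Ppid (cyclophilin 40), an HSP90 immunophilin like Fkbp4, rose by 0.91 (SE 0.18, limma adjusted p = 0.0042) and Nudcd2, an HSP90 partner of the NudC family, by 0.93 (SE 0.20, limma adjusted p = 0.0055). Of 7 genes tested for folding and repair of the sarcomere, Smyd2, a lysine methyltransferase that associates with HSP90 and titin, was called higher (log2 change 0.38, limma adjusted p = 0.041). Unc45b, the myosin chaperone, stood at -0.21 (limma adjusted p = 0.22), the Z-disc protein Csrp3 at -0.20 (0.38), and the ubiquitin ligase Stub1 (CHIP) at -0.11 (0.55).

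In quadriceps none of the 46 genes was called, where 1 of all 12270 genes tested was (0.00815%). At an unadjusted p under 0.05, 3 of the 46 stood out (6.52%), against 762 of all genes (6.21%), a share close to the background. These were Fkbp4, Dnajb4 and Hspb2. Fkbp4 read 2153 and 2323 in the quadriceps controls and 2825 and 3282 in the Myc-labelled libraries (log2 change 0.45, 95% interval 0.03 to 0.86, limma adjusted p = 0.77). Dnajb4 read 1570.2 and 2130.2 in controls and 1126 and 1428 in Myc-labelled libraries (log2 change -0.53, limma adjusted p = 0.77). Hspb2 read 963 and 971 in controls and 780.1 and 699 in Myc-labelled libraries (log2 change -0.39, limma adjusted p = 0.78). The groups did not overlap, with Myc-labelled values higher, for 19.6% of the set (18.3% of all genes) and, with Myc-labelled values lower, for 17.4% (16.9%), again close to the background. Without Myc-labelled quadriceps library 2, which leaves 1 library in that group, Hspa1l (limma adjusted p = 0.046) and Hspa4l (0.029) were called lower, where 91 of all genes were.

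None of the 10 genes called higher in soleus was called in quadriceps, and the groups of Hsp90aa1, Bag2, Hsph1 and Ptges3 overlapped there. Hsp90aa1 read 814 and 786 in controls and 810.4 and 813 in Myc-labelled libraries, a log2 change of 0.02 (95% interval -0.34 to 0.38). Bag2 read 388 and 479 in controls and 445 and 435 in Myc-labelled libraries, and Hsph1 read 2104 and 1701 in controls and 1829.6 and 2212 in Myc-labelled libraries, both with overlapping groups. Ahsa1 read 1403 and 1363 in controls and 1452 and 1538 in Myc-labelled libraries (log2 change 0.11, limma adjusted p = 0.95). Dnajc2 read 589.5 and 547 in controls and 812 and 664 in Myc-labelled libraries (log2 change 0.37, limma adjusted p = 0.82). For Ahsa1 and Dnajc2 both Myc-labelled values lay above both controls. The same held for Fkbp4, Hspa4 (log2 change 0.15), Cdc37 (0.28) and Hsf1 (0.16). Over all genes tested in quadriceps, 18.3% were separate in this direction. Hspa2, the gene that fell in soleus, read 66.1 and 195 in controls and 36.0 and 59.2 in Myc-labelled libraries (log2 change -1.28, 95% interval -2.65 to 0.09). All 10 genes called higher in soleus had a positive log2 change in quadriceps and all 10 changes were smaller there. A direction without a call is a description only. The 10 were picked by their soleus values, so smaller changes in quadriceps cannot show that the muscles differ. Outside the set, Ruvbl1 stood at 0.84 (limma adjusted p = 0.46) and Ruvbl2 at 0.51 (0.65).

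A different pattern stood out among the quadriceps libraries, between the replicates of each group. For 8 of the 46 genes (17.4%), library 2 was at least 1.5 times library 1 in both groups, against 5.78% of all genes tested. This bound was chosen after the values were seen. The 8 were Hspb7, Cryab, Hspb6, Hspa1a, Hspa1b, Hspa1l, Hspa2 and Dnaja4. All 8 also read lower in each Myc-labelled library than in the control of the same number, though none was called. All 7 small heat shock proteins had a negative log2 change in quadriceps (median -0.39), as had 6 of the 8 HSP70 genes (median -0.43). Of the 46 genes, 24 changes were negative there and 22 positive. Hspb7 read 4882 and 21381 in controls and 1869 and 8515 in Myc-labelled libraries, a ratio of library 2 to library 1 of 4.38 and 4.56. Hspa1a read 157 and 599.6 in controls and 45.6 and 177 in Myc-labelled libraries (3.81 and 3.88). Cryab read 6140.0 and 14908 in controls and 3206 and 7552 in Myc-labelled libraries (2.43 and 2.36).

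In all 3 the first control lay below the second Myc-labelled library, so the groups overlapped. The fast oxidative myosin Myh2, picked out after the values were seen, ran in the same order, at 7752 and 70429 in controls and 5516 and 42229 in Myc-labelled libraries. It was the 1 gene of the 12 fast fibre markers to do so, and their sum ran the other way, at 2661010.0 and 1971210.0 in controls and 2798380.0 and 2105130.0 in Myc-labelled libraries. Myh1, the myosin of intermediate fast fibres, read 75925 and 58791 in controls and 17909 and 145236 in Myc-labelled libraries. The slow myosin Myh7 did not run in the order of Myh2, at 9731 and 76136 in controls and 174 and 156 in Myc-labelled libraries. The sum of 10 slow fibre markers was 26329 and 191046 in controls and 1986 and 3525 in Myc-labelled libraries. Of that list, only Casq2 and Myh7b ran in the order of Myh2. Casq2 read 449 and 2127 in controls and 190 and 629 in Myc-labelled libraries, and Myh7b 37.1 and 386 against 1.03 and 52.3. The fast glycolytic myosin Myh4 read 1027830.0 and 669597 in controls and 1136560.0 and 717849 in Myc-labelled libraries, higher in library 1 of each pair. In all, 10 of the 46 genes (21.7%) ranked the 4 libraries in the order of Myh2, against 8.46% of all genes. They were Hspa1a, Hspa1b, Hspa1l, Hspa4l, Hspb1, Hspb6, Hspb7, Cryab, Dnaja4 and Bag3. Each of 6 macrophage markers also ran in this order, with a sum of 910 and 1811 in controls and 618 and 1440 in Myc-labelled libraries. The sums of the other marker lists did not. The part of fibre makeup or of other cell types in the quadriceps values was not tested. With this spread, the interval for Hspb7 ran from -5.83 to 3.12 around a log2 change of -1.36 and that for Hspa1a from -5.19 to 1.67 around -1.76, so both intervals include changes of several-fold in either direction.

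**Figure D4:**
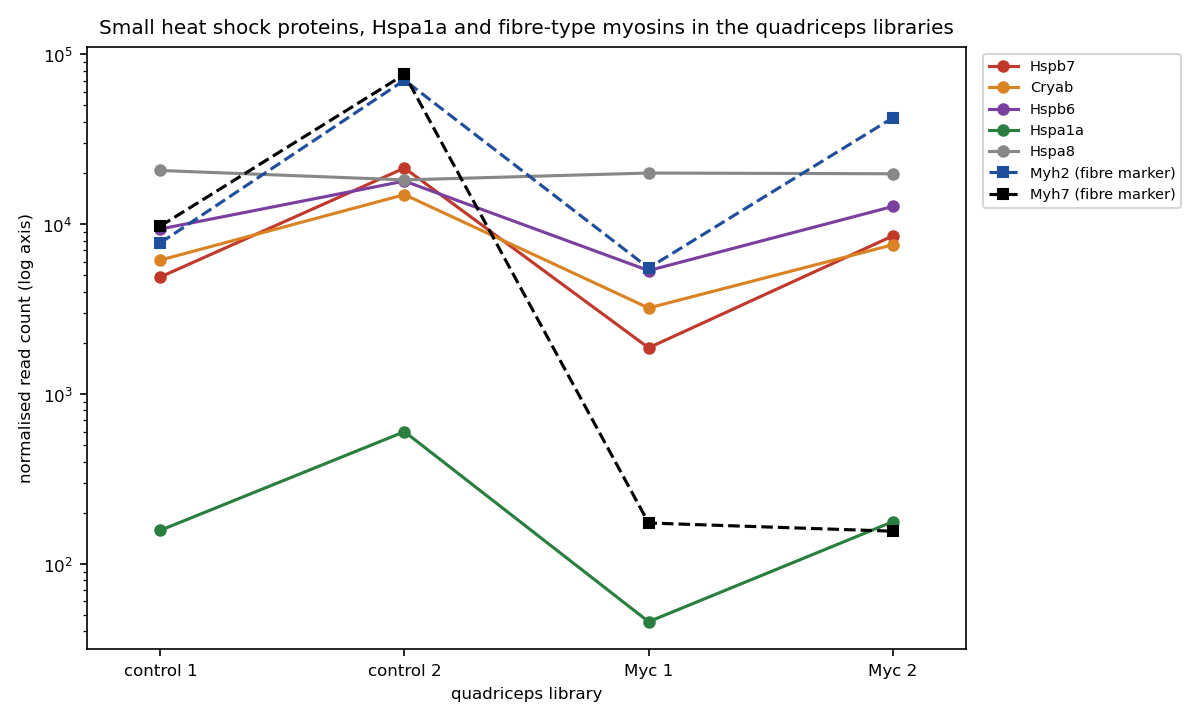
Normalised read count (log axis) of Hspb7, Cryab, Hspb6, Hspa1a and Hspa8 (solid lines) and of the fibre-type myosins Myh2 and Myh7 (dashed lines) in the 4 quadriceps libraries (x axis); lines only join the points of a gene. Hspb7, Cryab, Hspb6, Hspa1a and Myh2 are higher in library 2 than in library 1 of both groups, while Hspa8 lies between 18205 and 20686 in all 4.

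The soleus and quadriceps changes were compared in 1 fit over all 11 libraries, each muscle keeping its own mean. No gene of the 11971 tested in both muscles passed for the difference (0% called), and so none of the 46. At an unadjusted p under 0.05 there were 381 such genes (3.18%) and 4 of the 46 (8.70%): Hsp90aa1, Bag2, Hsph1 and Ahsa1. For Hsp90aa1 the soleus change exceeded the quadriceps change by 0.86 on the log2 scale (SE 0.19, 95% interval 0.45 to 1.27, limma adjusted p = 0.39). For Bag2 the excess was 0.62 (SE 0.18, 95% interval 0.23 to 1.01, limma adjusted p = 0.999). Hsph1 exceeded by 0.54 (95% interval 0.07 to 1.02) and Ahsa1 by 0.34 (95% interval 0.00 to 0.68). After adjustment over all genes none of these 4 differences passed the test. For Fkbp4 the difference was 0.19 (95% interval -0.14 to 0.52) and for Hspa2 0.40 (95% interval -0.69 to 1.49).

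The control libraries also show how chaperone transcripts are apportioned in each muscle. The tables were scaled separately, so levels are set side by side without a test, and per kilobase of exon to compare genes. Near copies of a transcript (at least 95% identity over at least 200 bases) make the level uncertain for Hsp90aa1, with matches in 3 other annotated genes, for Hspa8, with 6, and for Hspb1, with 2, which cover 51.3% and 47.4% of its transcript. In soleus controls the order was led by Cryab (20787 normalised reads per kilobase), Hspb6 (19240.0) and Hspb7 (17741), followed by Hsp90ab1 (7855), Hspa8 (4366) and Hspb1 (4060.3). In quadriceps controls Hsp90ab1 (7481) and Cryab (7116) led, then Hspb6 (5933), Hspb7 (4742) and Hspa8 (4521). The lowest gene in both was Hspa4l, at 12.7 in soleus and 16.5 in quadriceps. The quadriceps means of Cryab, Hspb6 and Hspb7 each average a low and a high library, so neighbours in that order do not differ beyond their spread.

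As a share of all normalised reads in each table, the set took 1.72 to 1.83% in the soleus controls and 0.738 to 1.01% in the quadriceps controls. In the Myc-labelled libraries it took 1.70 to 1.95% in soleus and 0.703 to 0.877% in quadriceps, overlapping the controls in both. The share of Hspb7 was 4.54 times as high in soleus controls as in quadriceps controls, and that of Hspa1b 4.50, Hspb6 3.94, Hspa2 3.75, Cryab 3.55 and Hspa1a 3.40 times. These ratios rest on 2 quadriceps controls that lie far apart: with control 1 or control 2 alone the ratio was 12.7 or 2.68 for Hspb7, 10.4 or 2.78 for Hspa1b, 5.96 or 2.88 for Hspb6, 7.70 or 2.42 for Hspa2, 6.31 or 2.41 for Cryab and 8.48 or 2.06 for Hspa1a. All 6 were above 2 with either control, as were Dnaja4, Bag3 and Hspa5, and the order of the 6 changed. The abundant cytosolic genes Hspa8 and Hsp90ab1 were nearer to even, at 1.17 and 1.28. Other constitutive chaperones were further from it, at 1.38 for Hspa4, 1.61 for Hsp90b1 and 2.02 for Hspa5. A lower share in soleus was found for Hsph1 (0.717), Fkbp5 (0.719) and Chordc1 (0.739). These 6 genes with the highest ratios are all among the 8 whose second quadriceps library was at least 1.5 times the first in both groups.

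**Figure D5:**
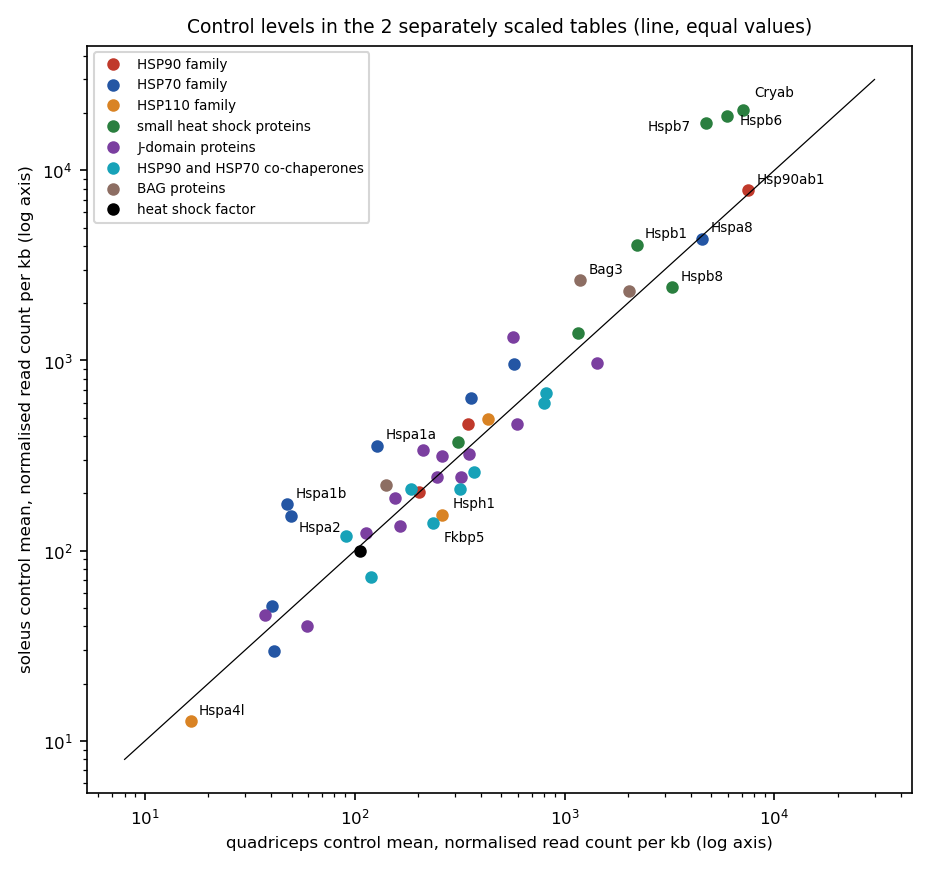
Control mean of each of the 46 genes per kilobase of exon in quadriceps (x axis) and soleus (y axis), both log axes, coloured by role; the line marks equal values, and the muscles come from separately scaled tables. Cryab, Hspb6 and Hspb7 lie highest and above the line, Hsp90ab1 and Hspa8 near it, and Hspa4l lowest.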

How the data were processed

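RNA was measured by RNA-seq in 11 libraries. The 2 deposited tables hold gene signal values that the authors had normalised separately for soleus and quadriceps: low values fall on steps of 1 read for each library (91.0 to 93.5% of values within 0.02 of a whole read), while higher ones need not be whole, so count models were not used. Per the submitters' processing notes, STAR 2.7.8a, Partek and DESeq2 were used, in roles not given in the sources used here, with mm10 and mm39 named as builds. Groups were compared within each table with limma 3.58.1 (R 4.3.3, statmod 1.5.0) after adding a pseudocount of 1 and taking log2; its prior variance followed the mean and was estimated robustly. Tested were genes at 10 or more in at least 3 soleus or 2 quadriceps libraries. Calls are Benjamini-Hochberg adjusted p under 0.05 over all genes tested. The fits were tested on simulated data.

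Exon lengths and overlaps came from GENCODE, near copies from BLAST 2.17.0, promoters from RefSeq GRCm38.p6. The 46 genes, their roles and the other lists were chosen with earlier results of these data known. All 46 may be named. Outside the set, Myc, marker genes beside a result, and the genes with the smallest p-values of each further list (up to 4 in soleus, up to 2 in quadriceps) are named. Alternatives covered scaling, pseudocount, filter, moderation, limma-voom, a replicate block, a single fit and each library left out. Leaving out Myc-labelled soleus libraries 3 and 4 together was added after the data were seen.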

Additional observations from a re-analysis of the deposited data

Results flagged for a closer look

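Among the 4 Myc-labelled soleus libraries, 1 value stood far from the other 3 in 4 of the 46 genes examined; chance gives this in about 1 of 20 such sets. The measure is the gap to the nearest value divided by the range, judged against Dixon's 95% critical value. Hspa8 was lowest in library 3, at 21010.2 against 23769 to 23891 in the others (0.960). Hspb6 was highest in library 4, at 48000.3 against 37685 to 38663 (0.894). Hspb8 was lowest in library 2, at 4454 against 5089.7 to 5170.0 (0.895). Dnajb4 was highest in library 1, at 3405 against 2448 to 2504 (0.931). A different library stood apart in each gene.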

How the results depend on the processing

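Hsp90aa1, Fkbp4, Bag2 and Hsph1 stayed called in soleus under every alternative run, while Ptges3 and Cdc37 also lost their calls without robust moderation (adjusted p = 0.059 and 0.051) and in a single fit over 11 libraries (0.060 and 0.067). The count of 10 genes called higher ran from 7 to 10 with 1 library left out, rose to 13 by library size and with limma-voom (Hsp90ab1, Hspa8 and Stip1 added), and fell to 5 without Myc-labelled libraries 3 and 4 together. The count of 1 gene called lower became 3 with a filter at a mean of 50 (Hspa1l and Dnajb5 added) and 0 in a single fit over 11 libraries, and ran from 1 to 3 with 1 library left out. In quadriceps the count called lower ran from 0 to 2 with 1 library left out (Hspa1l and Hspa4l without Myc-labelled library 2, where the lone library is assumed to vary like the others). The median log2 change in soleus ran from 0.0063 to 0.049 with 1 library left out. That in quadriceps was 0.050 under scaling by library size and 0.049 with limma-voom, and ran from -0.082 to 0.012 with 1 library left out; these scalings moved the median of all genes by 0.062 and 0.061. Over all genes, the number called lower in soleus was 181 by library size against 284, and a single fit called 77 higher and 17 lower in quadriceps against 1 and 0. Motif counts rose from 3 to 15 for the looser heat shock element and from 3 to 20 for the looser E-box.

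Same-numbered libraries were not treated as pairs, since the labels do not pair them. Correlations of their deviations were 0.0010, 0.076 and 0.14 in soleus, where not every library correlated best with its own number. In quadriceps the correlation was 0.14 for like numbers and -0.14 for unlike ones. With 2 libraries a group these differ only in sign by construction, so they cannot decide the pairing. With a replicate block, which uses 3 pairs in soleus and 2 in quadriceps, 2 genes were called lower in soleus (Hspa2 and Dnajb5), Cdc37 was not called (adjusted p = 0.066), 1 was called lower in quadriceps (Hspb7, adjusted p = 0.047), and 2 differed between muscles (Hspa1a by 1.82 and Hspb7 by 1.22, adjusted p = 0.0022 and 0.0036). Over all genes the block called 335 of 12745 lower in soleus, 3 of 12270 lower in quadriceps and 21 of 11971 different between muscles.

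Signs changed only for changes that were not called. By library size the log2 change in soleus became 0.011 for Dnajb9, 0.041 for Dnajb11 and 0.028 for Dnajc3, and in quadriceps 0.062 for Hsp90ab1, 0.0027 for Hspb8, 0.0037 for Dnajb6 and 0.037 for Dnajb9. With limma-voom these were 0.010, 0.039, 0.023, 0.061, 0.00096, 0.0038 and 0.036. With the replicate block they were 0.0085 for Dnajb1, 0.041 for Dnajc3, -0.010 for St13 and -0.017 for Bag1 in soleus. Without Myc-labelled libraries 3 and 4 they were -0.11 for Dnaja2, 0.050 for Dnajb1, 0.11 for Dnajc3, -0.024 for St13 and -0.069 for Bag1.

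With 1 soleus library left out, ranges crossed 0 for Hspa1a (-0.22 to 0.14), Hspa5 (-0.20 to 0.071), Dnaja2 (-0.051 to 0.077), Dnajb1 (-0.28 to 0.0085), Dnajb6 (-0.17 to 0.010), Dnajb9 (-0.16 to 0.085), Dnajb11 (-0.078 to 0.040), Dnajc3 (-0.072 to 0.041), St13 (-0.010 to 0.075) and Bag1 (-0.044 to 0.071). With 1 quadriceps library left out, they did so for Hsp90aa1 (-0.0030 to 0.046), Hsp90ab1 (-0.11 to 0.11), Hspa1b (-1.67 to 0.11), Hspa8 (-0.057 to 0.13), Hspa13 (-0.52 to 0.11), Hspa14 (-0.16 to 0.35), Hsph1 (-0.065 to 0.24), Hspb1 (-0.85 to 0.15), Hspb8 (-0.37 to 0.25), Dnaja1 (-0.034 to 0.38), Dnaja2 (-0.067 to 0.37), Dnaja4 (-0.98 to 0.099), Dnajb1 (-0.18 to 0.40), Dnajb6 (-0.12 to 0.00028), Dnajb9 (-0.24 to 0.19), Dnajc3 (-0.022 to 0.24), Chordc1 (-0.12 to 0.31), Ptges3 (-0.11 to 0.27), Bag1 (-0.058 to 0.098) and Bag2 (-0.12 to 0.18). The cause of these changes was not tested. With 2 libraries a group, quadriceps intervals are wide.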
